A study of Bos taurus with 8 samples.

Results

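Of the 763 bovine microRNAs (miRNAs) on the array, 242 have names from miR-2286 to miR-2499, and these are described here across the mammary tissue of 2 cattle breeds. They were chosen by name and number alone, any letter or arm included, but the group was put together with earlier results of these data known, so their counts are a description to be read beside the share of all tested miRNAs. The names present ran from miR-2286 to miR-2489, with 203 distinct numbers, 70 entries that name an arm and 3 that carry a version suffix. Together they had 520 of the 1657 probes, with 2 probes for 210 of them, 3 for 28 and 4 for 4.

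Mammary tissue came from the udders of 8 healthy, non-pregnant heifers at slaughter, 4 Holstein-Friesian (a dairy breed) and 4 Limousin (a beef breed), with no treatment. Their age is 20 months in the sample characteristics and 2 years in the labels' protocol. Total RNA of each animal, carrying the dye Cyanine 3-pCp, was read on a separate one-colour miRNA array from Agilent, and by the labels the 4 animals of a breed are biological replicates. All 8 arrays lay on 1 slide, the Holstein-Friesian samples in the first and the Limousin samples in the second position index, so that position on the slide and breed cannot be told apart. An array gave between 28.6% and 35.5% of its 45780 spots well above background, and none saturated. Correlations of log2 signal between arrays lay from 0.969 to 0.991 within Holstein-Friesian and from 0.992 to 0.995 within Limousin. The 6 listed entries of mammary epithelium (the miR-200 family and miR-205) were detected on all 8 arrays. The 3 entries of liver and brain (miR-122, miR-9-3p and miR-9-5p) were detected on none, and the listed miR-124 matched no entry by its exact name.

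MicroRNAs are short RNAs that guide Argonaute proteins to partly complementary sites in messenger RNAs and lower their output, with the seed near the 5′ end of the miRNA deciding most of the pairing. They are cut from hairpins by Drosha and Dicer, and many hairpins lie in introns of protein-coding genes. Numbers are given in order of registration, so that low numbers are mostly the conserved miRNAs known early, while these numbers hold many entries named from cattle sequencing. For most of them no function is established. Agilent's probes pair with the miRNA from its 3′ end and are shortened until their melting temperatures match, so that a GC-rich miRNA gets a short probe, and a run of C in a probe stands for a run of G in the miRNA.

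The probes of the members with the largest breed differences, the largest spread and the smallest differences are given here so that their bases and lengths can be set beside the values below. Each is printed 5′ to 3′ as the scanner files give it, the capitals marking its longest run of G and C. The first 6 belong to the members with the largest differences, the next to the member with the largest spread and the last 3 to those with the smallest differences.
miR-2413: accgcagtCCCCC
miR-2410: tcacaGGtcctcctc
miR-2305: ccccctCCCCGC
miR-2328-3p: tGGCCCCCtccc
miR-2436-5p: CGCCCtcccgac
miR-2476_v18.0: ctaaCCactagaccac
miR-2439-3p: tctGCCtacctgtcttc
miR-2348: GGCCGCtccac
miR-2412: ccctctCCCCacc
miR-2389: ctccgactCCCG

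Most of these miRNAs gave no signal in the gland. Detection required over 50% of a probe's spots to be well above background on an array, for any probe of the miRNA. Of the 242, 194 (80.2%) were detected on no array, 31 on all 8 and 17 on some. The names miR-1 to miR-1199 with let-7 had 171 of 355 on all 8 arrays and 41.1% on none, and miR-2284 with miR-2285, a bovine repeat family, had 0 of 49 on all 8 and 98.0% on none. The names miR-1200 to miR-1999 and those from miR-2500 on lay between, with 64.4% of 45 and 63.9% of 72 on no array. Per array, from 32 to 47 of the 242 were detected, the lowest on Holstein-Friesian replicate 2 and the highest on Limousin replicate 2.

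**Figure D1:**
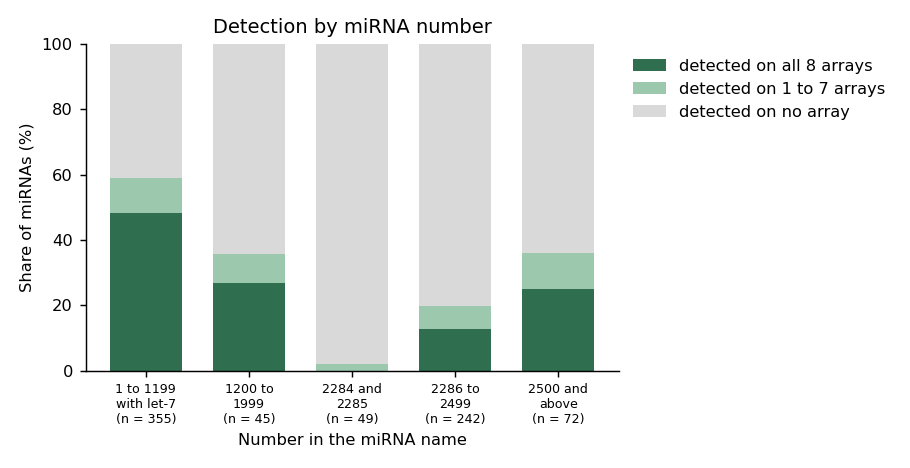
Share of the miRNAs in each number class (y axis, percent) that were detected on all 8 arrays, on 1 to 7 arrays or on none, with the number of miRNAs under each bar. From miR-2286 to miR-2499, 31 of 242 are detected on all 8 arrays, against 171 of 355 from miR-1 to miR-1199 with let-7.

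The 36 members present on every array of either breed (14.9% of 242, against 44.9% of the 521 other miRNAs) were tested. Their probes had a median GC content of 64.3% and a median length of 14 bases, while those of the 194 members detected on no array had 50% and 16 bases and those of the 234 other tested miRNAs had 50% and 17 bases. Cytosine made up a median of 48.5% of the probes of the tested members and 28.6% in the members detected on no array. The run CCCC, searched on the printed strand only, stood in the probes of 6 of 36 tested members (16.7%), 7 of 194 undetected members (3.61%) and 35 of all 763 miRNAs (4.59%). The tested members thus had shorter and more GC-rich probes than the undetected ones, a description for which no test was made.

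Another 12 members were detected on some arrays without filling a breed. miR-2406 was detected on 6 arrays, miR-2295, miR-2302 and miR-2382-3p on 5, miR-2464-5p on 4, and miR-2384 and miR-2392 on 3. miR-2292, miR-2313-5p, miR-2330-5p and miR-2467-3p were each detected on 1 array, Limousin replicate 2, and miR-2422 on 1, Holstein-Friesian replicate 1. Limousin replicate 2, which had the highest 75th percentile of signal, detected 11 of the 12, and Holstein-Friesian replicate 2 and Limousin replicate 3 detected 1 each. No member was detected on every array of one breed and on none of the other.

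The comparison asks how the mammary miRNAs of the beef breed differ from those of the dairy breed. Each array was scaled by its own 75th percentile, taken over the 429 probes that passed detection everywhere, and differences are Limousin minus Holstein-Friesian on the log2 scale. Among the 36 tested members 23 were lower in Limousin (63.9%) and 0 were higher, at an adjusted p under 0.05 from limma with Benjamini-Hochberg adjustment over all 270 tested miRNAs. Over those 270, 28.1% were called lower and 13.7% higher. Most of the 15 tested miRNAs from miR-1200 to miR-1999 and of the 21 from miR-2500 on were also called lower. None of these was called higher, so the direction is not particular to the members. The median difference was -0.70 in the members and -0.07 over all tested miRNAs, and 34 of the 36 differences were below 0. At an unadjusted p under 0.05, 26 members were lower and 0 higher, where 31.9% and 18.9% of all tested miRNAs were. The arrays of the breeds did not overlap for 15 members, every time with Holstein-Friesian above, where 36.7% of all tested miRNAs did not overlap in either direction. In pieces of whole tissue, fewer cells of a type and less RNA per cell cannot be told apart. Leaving out Holstein-Friesian replicate 4, Limousin replicate 1 or Limousin replicate 4 left 15, 15 and 14 of 36 members lower, with 48 of 270, 47 of 272 and 55 of 270 lower over all tested miRNAs. Leaving out Holstein-Friesian replicate 2 gave 30 of the 39 members then tested and 93 of 276 miRNAs in all.

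**Figure D2:**
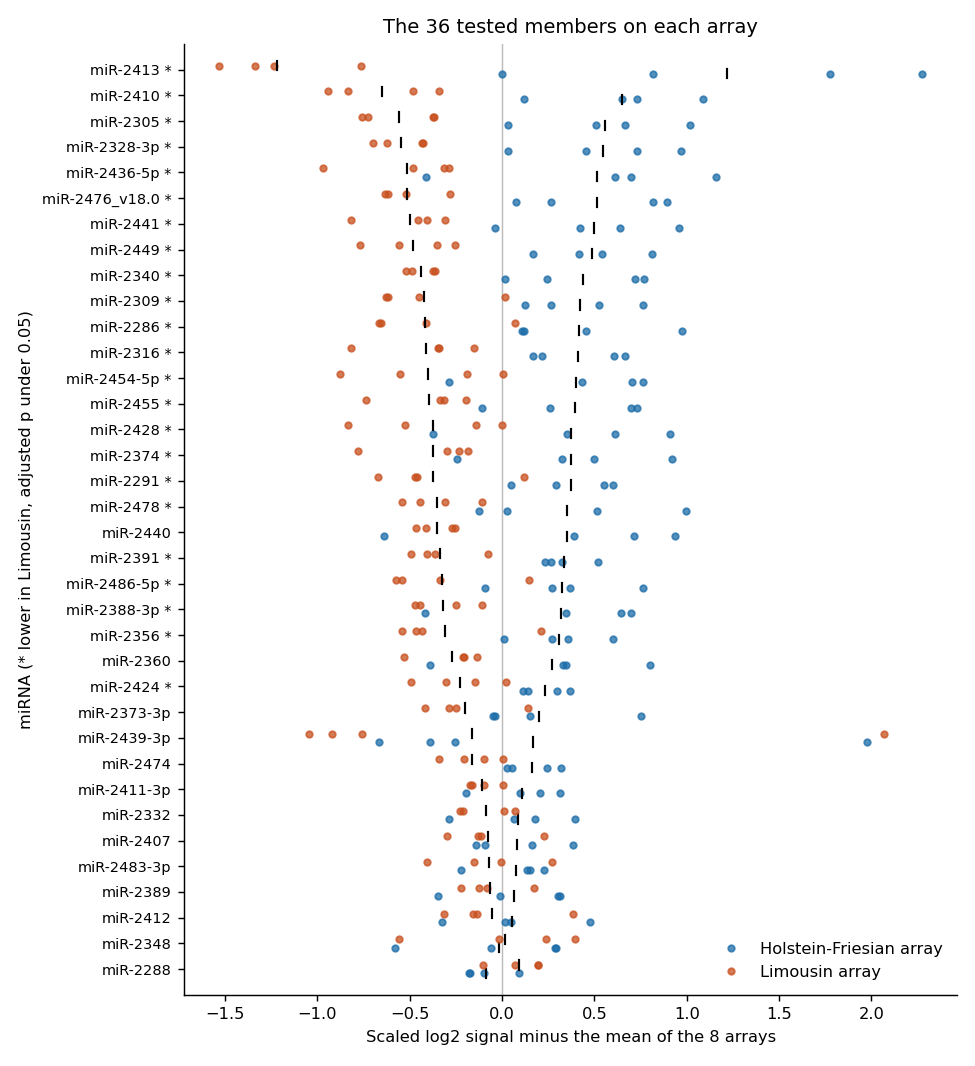
Scaled log2 signal of each of the 36 tested members on each array, minus that member's mean over the 8 arrays (x axis), with 1 line per miRNA, blue points for Holstein-Friesian and orange points for Limousin arrays. Black ticks are the breed means and stars mark the 23 members called lower in Limousin; 2 members, miR-2348 and miR-2288, have a Limousin mean above the Holstein-Friesian mean.

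miR-2413 had the largest difference. On the Holstein-Friesian arrays its scaled log2 signal was 11.16, 8.88, 10.66 and 9.70 in replicates 1 to 4, and on the Limousin arrays 7.65, 7.35, 8.12 and 7.54. Every Holstein-Friesian array was above every Limousin array, but the Holstein-Friesian arrays were themselves spread widely, with a mean of 10.1 ± 1.01 (SD, n = 4) against 7.67 ± 0.33 (SD, n = 4). The log2 difference was -2.43 (SE 0.42), which is 5.40 times lower, with a limma adjusted p of 0.0030. Its 13-base probe, annotated to chr3:33702871-33702882 in UMD 3.1 (the annotated spans of probes cover 1 position less than the probe), had a partner lacking the last base that was detected on 3 Holstein-Friesian and 0 Limousin arrays, with a difference of -2.34. Of the 23 members called lower, miR-2413 alone kept its call under every one of the 4 other scalings, a count not made over all tested miRNAs. These 4 include no scaling, under which 2 of all 270 tested miRNAs were lower.

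miR-2410 followed. Its scaled log2 signal was 7.82, 6.85, 7.38 and 7.46 on the Holstein-Friesian arrays and 5.79, 6.39, 5.89 and 6.25 on the Limousin arrays. The breeds did not overlap, and the log2 difference was -1.30 (SE 0.21, limma adjusted p = 0.0024), or 2.46 times lower. The 15-base probe is annotated to chr29:51051789-51051802, and its shorter partner was well above background on 0 of the 8 arrays.

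miR-2305 and miR-2328-3p, whose short probes are mostly C, had the next largest differences and a like pattern over the arrays. For miR-2305 the values were 14.32, 13.34, 13.82 and 13.97 in Holstein-Friesian and 12.58, 12.94, 12.55 and 12.94 in Limousin. miR-2328-3p stood at 13.69, 12.75, 13.18 and 13.45 in Holstein-Friesian and at 12.09, 12.29, 12.02 and 12.29 in Limousin. In both the breeds were separate, with Holstein-Friesian replicate 2 the lowest of its breed. The log2 differences were -1.11 (SE 0.20) and -1.09 (SE 0.19), with limma adjusted p of 0.0035 and 0.0030. The miR-2305 probe is annotated to chr13:39836885-39836895.

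miR-2436-5p was called lower with overlapping breeds. Its scaled log2 signal was 6.22, 4.65, 5.67 and 5.75 on the Holstein-Friesian arrays, where it was detected on 3 of 4, and 4.09, 4.77, 4.57 and 4.74 on the Limousin arrays. Holstein-Friesian replicate 2 fell among the Limousin values. The log2 difference was -1.03 (SE 0.30, limma adjusted p = 0.020), and the call was lost without Holstein-Friesian replicate 4 or without Limousin replicate 1, with an adjusted p of at most 0.061. The probe is annotated to chr5:84244520-84244530.

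miR-2476_v18.0, an entry with a version suffix, had one of the less GC-rich probes of this group, at 50% over 16 bases. The values were 5.69, 5.14, 4.95 and 5.76 in Holstein-Friesian and 4.25, 4.24, 4.59 and 4.35 in Limousin, with no overlap. Its log2 difference was -1.03 (SE 0.19, limma adjusted p = 0.0036). The probe is annotated to chr9:5636365-5636379.

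The other 17 members called lower had smaller differences. Those of miR-2441 (-0.99), miR-2449 (-0.97), miR-2340 (-0.87), miR-2309 (-0.84), miR-2286 (-0.83), miR-2316 (-0.83), miR-2455 (-0.79), miR-2391 (-0.67) and miR-2424 (-0.46) came with breeds that did not overlap. In miR-2454-5p (-0.81), miR-2428 (-0.75), miR-2374 (-0.75), miR-2291 (-0.75), miR-2478 (-0.70), miR-2486-5p (-0.65), miR-2388-3p (-0.64) and miR-2356 (-0.62) at least 1 array of a breed lay within the other. miR-2340 and miR-2441 were detected on 3 of the 4 Holstein-Friesian arrays. Of the 23 calls, 13 held in each fit that left out 1 array, a count not made over all tested miRNAs. The calls of miR-2388-3p and miR-2428 held in 1 of these 8 fits, those of miR-2454-5p and miR-2486-5p in 2, those of miR-2356 and miR-2374 in 3, that of miR-2478 in 4, that of miR-2424 in 5, that of miR-2436-5p in 6 and that of miR-2286 in 7.

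The 13 members not called had differences from -0.70 to 0.18. They were miR-2440 (-0.70), miR-2360 (-0.54), miR-2373-3p (-0.41), miR-2439-3p (-0.33), miR-2474 (-0.32), miR-2411-3p (-0.21), miR-2332 (-0.18), miR-2407 (-0.16), miR-2483-3p (-0.15), miR-2389 (-0.13), miR-2412 (-0.11), miR-2348 (0.03) and miR-2288 (0.18). The call depended on the arrays for miR-2440: its Holstein-Friesian arrays ran from 5.40 to 6.97, the lowest being replicate 2, and its limma adjusted p of 0.072 became 3.4e-04, with a difference of -1.03, without that replicate. Leaving out Holstein-Friesian replicate 2 also brought calls for miR-2360 (-0.76), miR-2474 (-0.36) and miR-2411-3p (-0.31). Leaving out Limousin replicate 3 brought one for miR-2407 (-0.48), but there its 13-base probe stood for it in place of the 12-base one. With all 8 arrays these 2 probes had differences of -0.38 and -0.16. In miR-2474 the breeds did not overlap (Holstein-Friesian 7.29 to 7.59, Limousin 6.92 to 7.27) and the limma adjusted p was 0.060.

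The 3 smallest differences came from probes as short and GC-rich as those of members called lower. miR-2348 had 6.03, 5.16, 5.68 and 6.03 on the Holstein-Friesian and 5.18, 5.98, 5.72 and 6.13 on the Limousin arrays, with the lowest array of each breed nearly level. For miR-2412 the values were 10.71, 9.91, 10.25 and 10.28 in Holstein-Friesian and 10.08, 10.1, 10.62 and 9.92 in Limousin. miR-2389 stood at 6.60, 5.95, 6.28 and 6.60 in Holstein-Friesian and at 6.21, 6.17, 6.47 and 6.07 in Limousin. The breeds overlapped in all 3, and their 95% intervals of the difference ran from -0.51 to 0.57 for miR-2348, from -0.54 to 0.32 for miR-2412 and from -0.50 to 0.24 for miR-2389. Their probes have 81.8%, 76.9% and 75% GC over 11, 13 and 12 bases.

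Calls of a lower signal in Limousin were fewest on the longest probes, in the members and in the other miRNAs. In the members they did not fall step by step with length. On probes of 14 bases or fewer, 15 of 22 members (68.2%) and 24 of 34 other tested miRNAs (70.6%) were called lower. With 15 or 16 bases these were 6 of 8 members (75%) and 19 of 57 others (33.3%), and with 17 or more 2 of 6 members (33.3%) and 10 of 143 others (6.99%). Higher calls in these classes numbered 1 of 34, 3 of 57 and 33 of 143 others (23.1%), and 0 of the members. The members' median differences in these 3 length classes were -0.75, -0.85 and -0.27, and those of the others -0.67, -0.19 and 0.13. Spearman's rho between the difference and the probe's GC content was -0.39 over the 36 members and -0.59 over the 234 others, and with length 0.24 and 0.60. Genes on an array share its labelling and hybridisation and are not independent replicates, and GC content and length themselves had a rho of -0.93 in the members, so these are descriptions and the parts of GC content and length cannot be told apart.

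**Figure D3:**
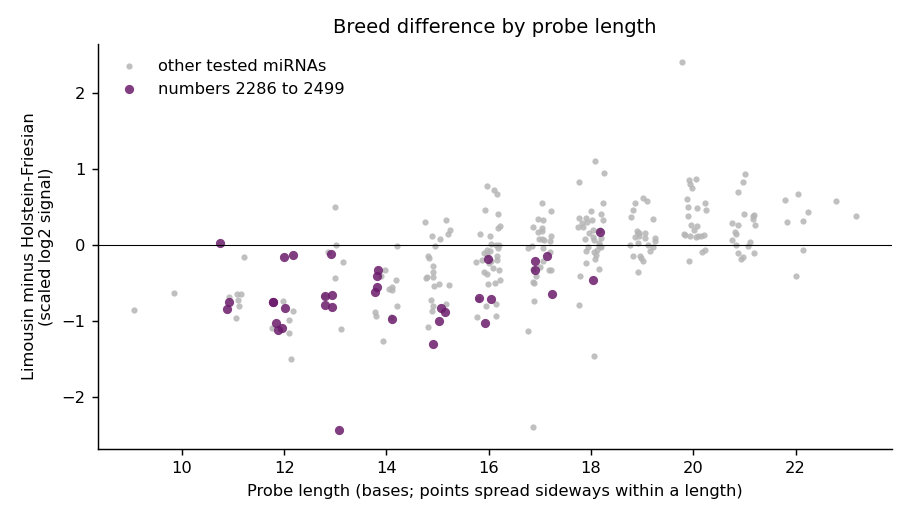
Breed difference in scaled log2 signal (y axis, Limousin minus Holstein-Friesian) against the length of the miRNA's probe in bases (x axis) for the 36 members (purple) and the 234 other tested miRNAs (grey). Members have probes of 11 to 18 bases, and on the shortest probes both sets lie mostly below 0.

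When the GC content and length of the probes were corrected for on each array, 10 of the 23 members stayed lower: miR-2413 (-1.96), miR-2410 (-1.09), miR-2476_v18.0 (-0.96), miR-2441 (-0.79), miR-2340 (-0.66), miR-2424 (-0.64), miR-2286 (-0.62), miR-2449 (-0.62), miR-2328-3p (-0.49) and miR-2305 (-0.48). Under the same correction 3 members were called higher in Limousin, miR-2348 (0.73), miR-2389 (0.44) and miR-2407 (0.41), with limma adjusted p of 0.016, 0.012 and 0.0097. Over all 270 tested miRNAs 19.3% were then lower and 9.63% higher, so that the 3 of 36 members called higher lay near the share of all. The median difference of the members was then -0.27, against -0.14 over all 270. The differences of miR-2305 and miR-2328-3p shrank most among the calls that held, from -1.11 and -1.09, while miR-2388-3p (-0.66) and miR-2478 (-0.61) lost their calls with differences close to those before the correction, at limma adjusted p of 0.054 and 0.065. Both the correction and every fit without 1 array kept miR-2305, miR-2328-3p, miR-2340, miR-2410, miR-2413, miR-2441, miR-2449 and miR-2476_v18.0 lower. How many of the other miRNAs passed both was not counted.

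The direction of most members also rested on the scaling. The 75th percentile used for it ran from 557 to 939 on the Holstein-Friesian arrays and from 943 to 1579 on the Limousin arrays, and without scaling the median difference over all tested miRNAs moved from -0.07 to 0.78. Unscaled, 1 member was lower in Limousin, miR-2413 (-1.58), and 8 were higher: miR-2288 (1.03), miR-2348 (0.88), miR-2412 (0.74), miR-2389 (0.73), miR-2483-3p (0.71), miR-2407 (0.70), miR-2332 (0.68) and miR-2411-3p (0.64). Over all 270 miRNAs 0.741% were then lower and 64.1% higher, and the members' median of 0.15 lay below the 0.78 of all. With the percentile taken over all probes, 11 members were lower and 1 higher, and 30 and 104 of all tested miRNAs. Quantile normalization gave 14 and 0 members, and 42 and 54 of all. The members thus stood lower than the body of tested miRNAs scaled and unscaled, by the same amount, since scaling by a percentile moves all miRNAs of an array alike.

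**Figure D4:**
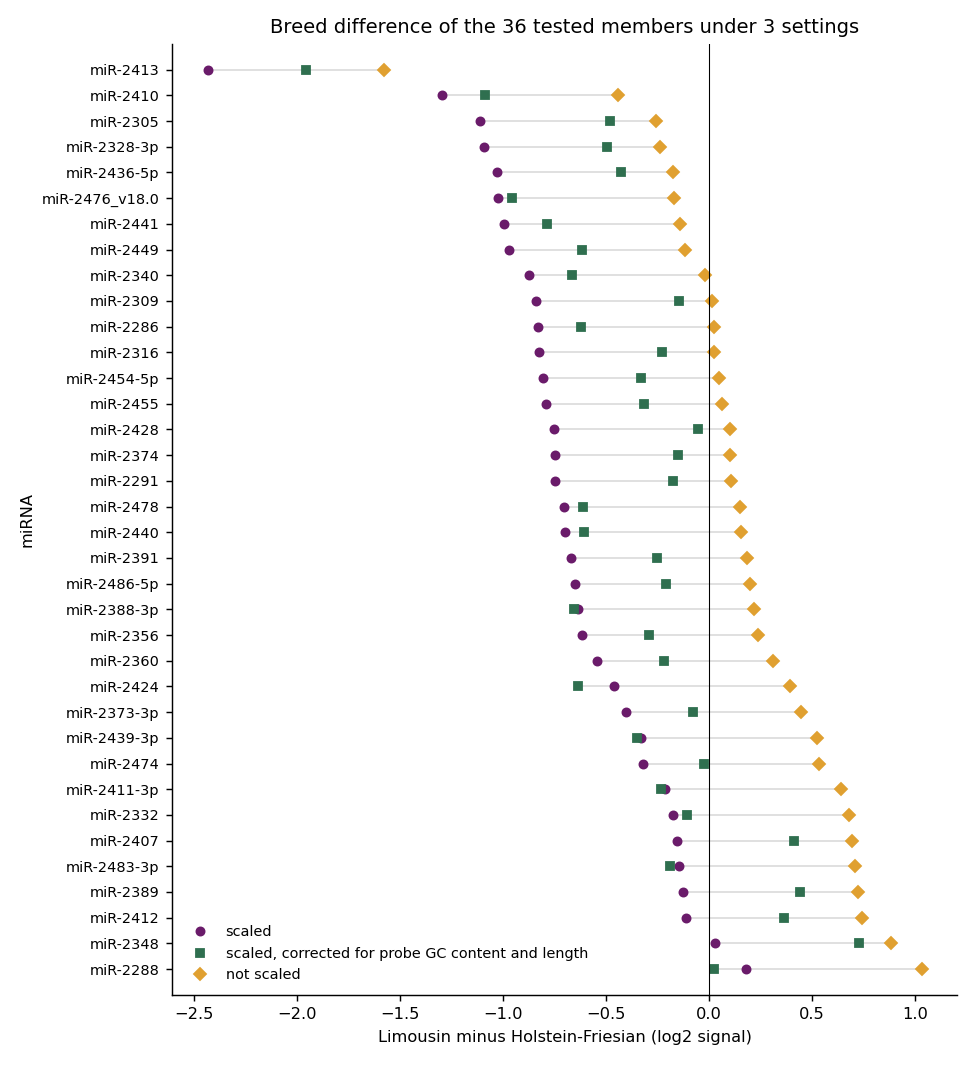
Breed difference in log2 signal (x axis, Limousin minus Holstein-Friesian) of each of the 36 tested members (y axis) with scaling to the 75th percentile (purple circles), with a further correction for GC content and probe length (green squares) and without scaling (yellow diamonds). Without scaling 25 members change sign, while miR-2413 is the lowest under all 3 settings.

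The members also varied more among the Holstein-Friesian animals. The median SD over members was 0.39 on the Holstein-Friesian and 0.23 on the Limousin arrays, and the Holstein-Friesian SD was the larger in 25 of 36 members, as it was in 173 of the 234 other tested miRNAs; the spreads were not tested. Holstein-Friesian replicate 2, which had the lowest 75th percentile, was the lowest Holstein-Friesian array for 24 of the 36 members. Replicate 3 was the lowest for 10 and replicates 1 and 4 for 1 each, a count not made over the other tested miRNAs. miR-2478 went the other way, at 17.55, 18.52, 17.39 and 18.03 on the Holstein-Friesian arrays, with replicate 2 the highest, and at 16.98, 17.08, 17.41 and 17.21 on the Limousin arrays. Summed scaled signals of the lymphoid and pan-leukocyte entries ran from 877 to 1348 in Holstein-Friesian and from 1348 to 1731 in Limousin. Of these entries miR-155 (0.95) and miR-142-5p (0.56) were called higher in Limousin and miR-150 (0.02) was not. The sums of the mammary epithelium (17792 to 19968 and 18822 to 20644), stromal (8616 to 9349 and 8973 to 10459) and myeloid entries (108 to 217 and 129 to 164) overlapped between the breeds. Of the stromal entries miR-199a-3p (0.47) and miR-199a-5p (0.36) were called higher in Limousin, and miR-143 (-0.06) and miR-145 (-0.23) were not called. The part of any of these in the members' differences was not tested.

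miR-2439-3p had the largest spread of all members, and its replicate 4 was high in both breeds. Its scaled log2 signal was 5.03, 4.75, 5.17 and 7.40 on the Holstein-Friesian arrays and 4.66, 4.38, 4.5 and 7.49 on the Limousin arrays, with SDs of 1.22 and 1.49. The value came from the 17-base probe printed above. The 2 probes that share its first 15 and 16 bases read 4.35 and 4.51 on Holstein-Friesian replicate 4 and 4.31 and 4.60 on Limousin replicate 4, within the 3.75 to 4.76 they gave on the other 6 arrays.

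Within that probe, 6 of the 20 spots carried the excess, and they lay at the same 6 positions on both arrays. Their intensities ran from 214 to 501 on Holstein-Friesian replicate 4 and from 376 to 859 on Limousin replicate 4, while the other 14 spots ran from 13.3 to 34.7 and from 30.9 to 64.9. The positions were scattered between array rows 6 and 368. A further position was bright on both replicate 3 arrays, at 351 in Holstein-Friesian and 215 in Limousin. Over the 2160 pairs of a tested miRNA's probe and an array, the mean and the median of the spots differed by over 0.3 on the log2 scale in 2, which are these 2 arrays of miR-2439-3p. With the median of the spots in place of their mean, an alternative chosen after seeing the data, the values were 5.06, 4.79, 5.06 and 5.33 in Holstein-Friesian and 4.62, 4.40, 4.47 and 4.94 in Limousin, and the difference was -0.45 (SE 0.16, limma adjusted p = 0.040) in place of -0.33 (SE 0.75, limma adjusted p = 0.74).

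**Figure D5:**
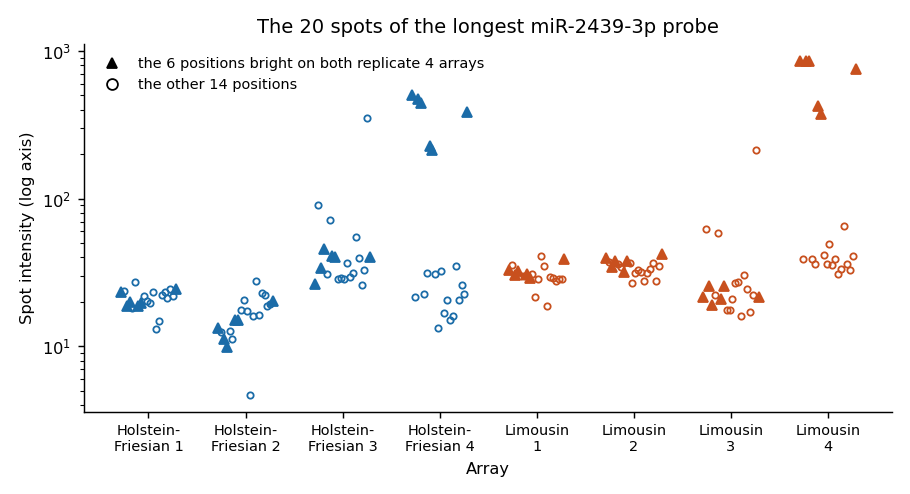
Intensity of the 20 spots of the longest miR-2439-3p probe (y axis, log scale, before scaling) on each of the 8 arrays, with filled triangles for the 6 positions that are bright on both replicate 4 arrays and open circles for the other 14. On Limousin replicate 4 the triangles lie from 376 to 859 and the circles from 30.9 to 64.9.

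Different probes of a miRNA mostly ran the same way. In 34 of the 36 tested members every probe had the same sign of difference. The probes of each member were nested, the longer ones extending the shorter at the 3′ end, so they are not independent. In 24 of the 36 members every probe was detected on all 8 arrays. The exceptions were miR-2288, with differences of -0.02 and 0.04 for its shorter probes against 0.18, and miR-2340, whose 14-base probe lay at the floor on 6 arrays and was detected on none.

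In RefSeq's cattle gene table (assembly ARS-UCD2.0, used for names and neighbours since the array annotation is on another build), 231 of the 242 members matched a miRNA gene by symbol, and 178 of these lay within the span of a protein-coding gene. The share was 25 of 34 among the matched tested members (73.5%) and 142 of 185 among those detected on no array (76.8%). Among the members called lower, MIR2410 lay within DEAF1, a transcription factor gene, MIR2305 within RIN2, a Rab5 exchange factor gene, MIR2309 within PLEC, which encodes the cytoskeletal linker plectin, MIR2454 within DNMT1, the maintenance DNA methyltransferase, and MIR2449 within IDUA, a lysosomal enzyme. MIR2440, not called, lay within RPL3, a ribosomal protein gene, and MIR2439 within MRTFA, a coactivator of serum response factor. MIR2413 lay within no protein-coding gene or long noncoding RNA of this table. The strand of the hairpin relative to the gene was not compared.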

How the data were processed

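The members and the lists of marker miRNAs were chosen with earlier results of these data known. The authors' scanner software was Agilent Feature Extraction, version 10.10.1.1, per the file headers, and the deposited spot intensity is already background-subtracted. The deposited value table holds log2 values: the software's total signal of each miRNA in log2, less 1 constant for each array. Its column medians, at the value of undetected miRNAs, ran from -9.79 to -8.53.

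Control and outlier spots were left out, spots of a probe were averaged, and signals were scaled to the 75th percentile over 429 probes. Values under 1 were set to 1 and log2 was taken. The probe with the highest mean stood for its miRNA, chosen again in each fit without 1 array. Detection on all 4 arrays of either breed was required for testing. The model held breed alone and was fitted by limma 3.58.1 (lmFit, eBayes; R 4.3.3), with an adjusted p threshold of 0.05, and was tested on simulated data.

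Every tested member is named. Values on each array are given for the 6 largest differences past the threshold, the 3 largest pooled SDs (miR-2439-3p, miR-2413 and miR-2436-5p) and the 3 smallest differences; those of miR-2478 were added after they were seen. Of the marker lists, 1 of 3 erythroid, 0 of 6 skeletal muscle, the 1 myeloid, 3 of 4 lymphoid, 0 of 1 adipocyte and 4 of 4 stromal entries were detected on all 8 arrays. Of the 6 skeletal muscle entries, 3 were detected on no array and the others on some. Names were matched exactly, so the 1 adipocyte entry was miR-193b. The tested miR-378b (-0.78) and miR-378c (-0.73) were not counted there, with limma adjusted p of 0.0036 and 0.0047. Alternatives covered scaling, background, probe summary, filter, floor, variance trend, a replicate block, probe composition and leaving out arrays. No mature miRNA sequences were used here.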

Additional observations from a re-analysis of the deposited data

Results flagged for a closer look

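In 72 groups of 4 arrays (36 tested members in 2 breeds), 3 had an array far from the other 3, where chance alone would mark about 1 in 20. The 3 of 72 do not exceed that share. miR-2439-3p was high on Holstein-Friesian replicate 4, at a scaled log2 signal of 7.40 against 4.75 to 5.17. It was high on Limousin replicate 4 as well, at 7.49 against 4.38 to 4.66. miR-2356 was high on Limousin replicate 3, at 7.54 against 6.79 to 6.89.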

How the results depend on the processing

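Without scaling, 8 members were higher and 1 lower, and 25 changed sign: miR-2286 (0.024), miR-2291 (0.11), miR-2309 (0.013), miR-2316 (0.027), miR-2332 (0.68), miR-2356 (0.24), miR-2360 (0.31), miR-2373-3p (0.45), miR-2374 (0.10), miR-2388-3p (0.22), miR-2389 (0.73), miR-2391 (0.18), miR-2407 (0.70), miR-2411-3p (0.64), miR-2412 (0.74), miR-2424 (0.39), miR-2428 (0.10), miR-2439-3p (0.52), miR-2440 (0.15), miR-2454-5p (0.048), miR-2455 (0.062), miR-2474 (0.53), miR-2478 (0.15), miR-2483-3p (0.71) and miR-2486-5p (0.20). With the 75th percentile over all probes, 11 members were lower and 1, miR-2288, higher, and miR-2332 (0.15), miR-2389 (0.20), miR-2407 (0.17), miR-2411-3p (0.12), miR-2412 (0.22), miR-2474 (0.0091) and miR-2483-3p (0.18) turned above 0. The deposited value table also gave 11 and 1 (28 and 81 over all 270), with miR-2332 (0.10), miR-2389 (0.15), miR-2407 (0.0098), miR-2411-3p (0.056), miR-2412 (0.20), miR-2439-3p (0.18) and miR-2483-3p (0.15) above 0. Quantile normalization left 14 lower, with miR-2389 (0.14), miR-2407 (0.043) and miR-2483-3p (0.032) above 0. Normexp with an offset of 50 and no background correction each gave 31 lower, and miR-2348 at -0.39 and -0.36. Over all 270 tested miRNAs, the lower and higher calls numbered 76 and 37 with the reported scaling and 30 and 104 with the 75th percentile over all probes. They numbered 42 and 54 with quantiles, 59 and 40 with the median, 146 and 26 with normexp and 143 and 27 without background correction. With normexp and without background correction the median difference over all 270 was -0.38 and -0.36.

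The correction for GC content and length gave 10 lower and 3 higher (52 and 26 over all 270), the higher being miR-2348, miR-2389 and miR-2407. Signs turned in miR-2389 (0.44), miR-2407 (0.41) and the uncalled miR-2412 (0.37). Together with the replicate block it gave 9 and 3 (41 and 20), at 0.44, 0.41 and 0.37. The labels pair no animals across breeds. Same-numbered arrays share the other position index, the one that does not separate the breeds. The deviations of same-numbered arrays did not all go together (correlations -0.31, -0.25, -0.45 and 0.32). The replicate block alone gave 19 lower and 0 higher (59 and 25). Leaving out 1 array gave from 14 of 36 to 30 of 39 members lower and 0 higher, and from 47 to 93 lower and 24 to 57 higher over all tested. The difference of miR-2348 then ran from -0.15 to 0.22, of miR-2412 from -0.26 to 0.038 and of miR-2439-3p from -1.08 to 0.28. The cause of these changes was not tested. Between 31 and 53 members would be tested under the other detection rules, against 36. Members on few arrays are limited by signal over background.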
